A study of Mus musculus with 12 samples.

Results

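The 38 genes described here are needed when a cell copies its DNA and divides. They were chosen by name, as S phase and mitosis genes, with earlier results of these data known. They were matched to the Ensembl identifiers of the count files through the gene annotation. All 38 were found among 55359 genes in the files, and all 38 were among the 17501 genes that passed a filter on low counts. By role they comprise 13 genes of S phase, 22 genes of G2, mitosis and cytokinesis, and 3 genes of the chromatin of dividing cells (Mki67, Top2a and Hmgb2).

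RNA was measured in bulk tissue microdissected from the ventroposterior medial nucleus (VPM) of the mouse thalamus on postnatal day 0, in 12 libraries. Ctrl ALBSF (n = 4) is control tissue of the antero-lateral territory, which receives input from the upper lip. Ctrl PMBSF (n = 4) is control tissue of the postero-medial territory, which receives input from the whisker pad, and embWPC ALBSF (n = 4) is tissue of the antero-lateral territory of pups given the treatment named embWPC, which the labels do not spell out. Every library is a pool of 5 brains, so the replicates are pools, not pups, and the labels give neither strain nor sex. The labels do not tie the pools of the 2 control territories to the same brains.

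A cell enters S phase when E2F factors and cyclin E switch on the genes for DNA copying, and the MCM helicase then opens the double helix ahead of the polymerases. Cyclins A and B with the kinase Cdk1 drive the cell into mitosis, where kinetochores, a checkpoint and motor proteins on the spindle part the chromosomes before the cell is cut apart. Relay neurons of the mouse thalamus are born before birth and do not divide again, whereas glial precursors, blood vessel cells and microglia still divide in newborn brain. In bulk tissue, fewer dividing cells and less RNA per dividing cell cannot be told apart.

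Promoters of these genes carry known sequence elements, and 6 are shown here as examples of how the mitosis and the S phase members differ near the start of transcription. The RefSeq promoter table (build GRCm38.p6, 250 bases before to 50 after a start) held 32 of the 38 genes, in 35 windows. Capitals mark 3 motifs on either strand. They are the CHR element TTTGAA, the CCAAT box, and the E2F site written as TTTCGCGC or as TTTGGCGC or as TTTCCCGC. A match on the other strand appears as its reverse complement, so that ATTGG stands for CCAAT, and overlapping E2F matches print as 1 run of capitals. The first 4 sequences belong to genes of mitosis and chromatin (Cdc20, which activates the ubiquitin ligase of anaphase, Cdk1, the topoisomerase gene Top2a and the spindle motor gene Kif11), the last 2 to the helicase genes Mcm5 and Mcm6, and each ends at the base before the start.
Cdc20, chr4:118437344-118437463, minus strand: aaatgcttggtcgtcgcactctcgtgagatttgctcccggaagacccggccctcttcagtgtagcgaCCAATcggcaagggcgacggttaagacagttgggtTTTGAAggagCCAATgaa
Cdk1, chr10:69352913-69353062, minus strand: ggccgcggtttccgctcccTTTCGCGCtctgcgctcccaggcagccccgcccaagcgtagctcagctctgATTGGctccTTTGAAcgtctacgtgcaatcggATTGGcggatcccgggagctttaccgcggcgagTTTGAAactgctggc
Top2a, chr11:99024190-99024349, minus strand: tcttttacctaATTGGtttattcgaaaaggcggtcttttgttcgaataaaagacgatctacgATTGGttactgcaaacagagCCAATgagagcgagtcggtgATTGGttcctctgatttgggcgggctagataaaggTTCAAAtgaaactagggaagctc
Kif11, chr19:37376282-37376381, plus strand: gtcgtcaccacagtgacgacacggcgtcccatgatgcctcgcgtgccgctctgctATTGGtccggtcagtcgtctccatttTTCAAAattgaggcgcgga
Mcm5, chr8:75109349-75109508, plus strand: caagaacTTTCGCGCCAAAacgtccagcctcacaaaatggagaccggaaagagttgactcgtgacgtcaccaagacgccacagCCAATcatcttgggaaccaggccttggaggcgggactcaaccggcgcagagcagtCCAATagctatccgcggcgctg
Mcm6, chr1:128359706-128359835, minus strand: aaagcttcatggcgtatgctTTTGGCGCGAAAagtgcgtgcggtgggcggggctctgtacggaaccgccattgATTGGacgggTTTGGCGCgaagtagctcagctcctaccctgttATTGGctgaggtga

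A TTTGAA match lay in 18 of 23 windows of mitosis and chromatin members (78.3%), in 1 of 12 windows of S phase members (8.33%), that of Mcm2, and in 17.9% of all 32817 windows of the table. These counts take in the bases after the start. In Plk1, Aurka, Bub1b, Cenpf, Kif23 and Anln every TTTGAA match lay after the start, not upstream. Matches to CCAAT were in 20 of 23 (87%), 8 of 12 (66.7%) and 37.4% of all windows. Windows with both numbered 17 of 23 (73.9%) and 1 of 12, against 6.94% of all windows. The E2F motifs were in 4 of 12 S phase windows (33.3%), those of Mcm3, Mcm5, Mcm6 and Mcm7, and in 1 of 23 mitosis and chromatin windows (4.35%), that of Cdk1, against 1.84% of all. Mcm7, Prc1 and Ect2 have 2 overlapping or neighbouring windows each, so windows of a gene are not independent, and a match is a run of letters, not a measured site. No test was run on these shares.

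Library totals ran from 28457046 to 34512840 counts. The 38 genes took 14254 to 22042 counts of a library, or 0.0449 to 0.0682% of it. Levels are given as CPM, counts scaled to a common library size after adjustment by the trimmed mean of M values (TMM). The TMM factors ran from 0.908 in Ctrl ALBSF 3 to 1.13 in embWPC ALBSF 4. The 10 thalamic relay neuron markers summed to 2169 to 2915 CPM in every library, whereas the 38 cell cycle genes summed to 467 to 664 CPM. The 5 ependymal and choroid plexus markers summed to 102 CPM in Ctrl ALBSF 2 and 24 CPM in Ctrl PMBSF 2, against 3.53 to 9.66 CPM in the other libraries, and most of this was Ttr, at 98.8 and 22 CPM in those 2 libraries.

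Per kb of exon, the highest of the 38 was Hmgb2, a DNA-bending protein of dividing and young cells, with a mean of 27.5 CPM per kb over the 12 libraries (range 20.6 to 32.9). Pcna, the sliding clamp of DNA polymerase, followed at 24.5 (21.2 to 27.5), and the ranges of these 2 genes overlapped. Rrm2, the regulated subunit of ribonucleotide reductase, came next at 9.90 CPM per kb, and its highest library (13.2) lay below the lowest of Hmgb2 and Pcna. Both Hmgb2 and Pcna are also used outside the cell cycle, in young neurons and in DNA repair.

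Among the mitosis members, Ube2c, the ubiquitin-conjugating enzyme of anaphase, had the highest level per kb, with 7.38 CPM per kb (5.17 to 9.07), and Cdc20 followed with 3.95 to 7.37 in single libraries. In the order of all 38, Ccnb1, the S phase members Mcm6 and Mcm7, and then Cdk1, Ccnb2 and Ccna2 followed between 4.75 and 3.68 CPM per kb, with overlapping ranges. The lowest of the 38 were Cenpf at 0.451, the midzone motor gene Kif23 at 0.434, Mki67 at 0.411 and Anln, an actin-binding protein of the cleavage furrow, at 0.165 CPM per kb. Mki67, which encodes the antigen by which dividing cells are stained, was thus next to last of the 38 by mean CPM per kb in these poly-A libraries. Its range of 0.271 to 0.528 CPM per kb overlapped those of Kif23 (0.329 to 0.549) and Cenpf (0.336 to 0.558). The order depends on division by exon length. Before it, the means were 7.47 CPM for Cenpf, 3.44 for Kif23, 4.22 for Mki67 and 1.86 for Anln.

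**Figure D1:**
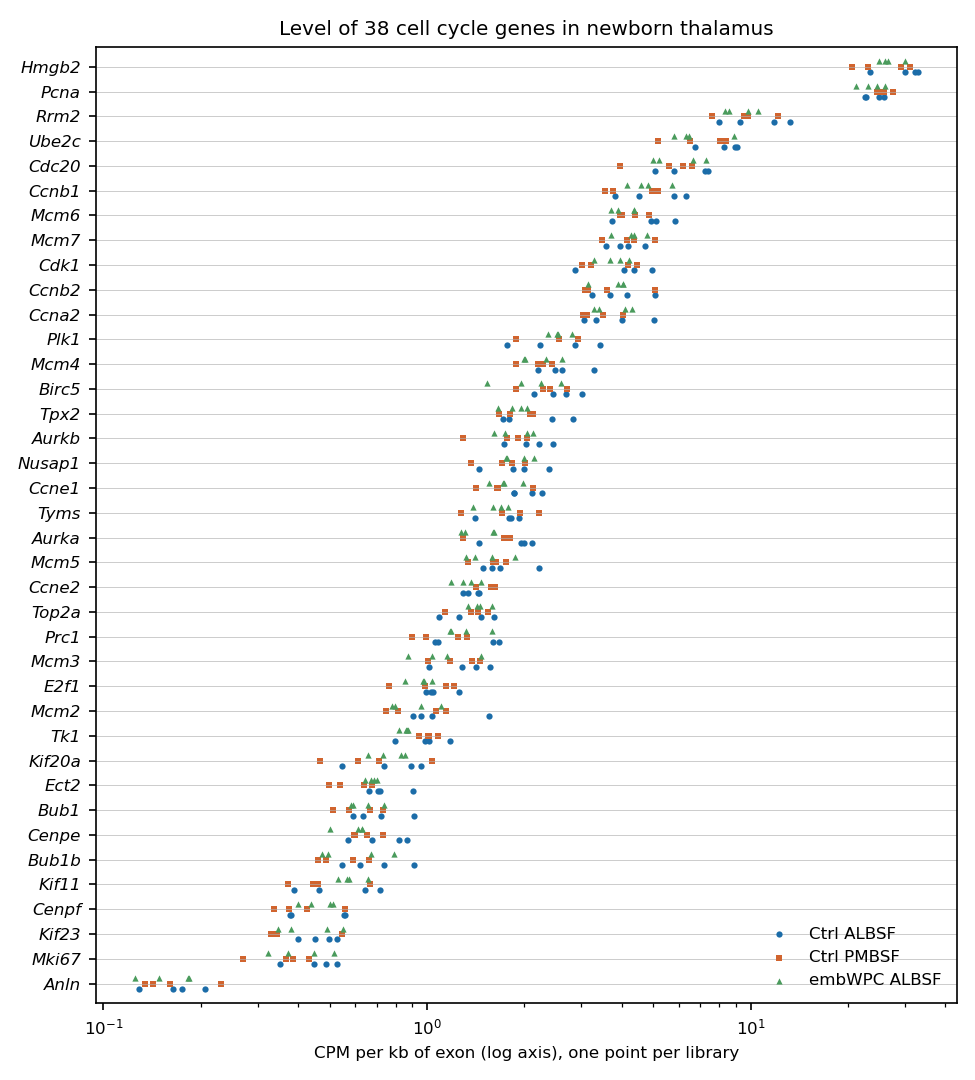
Level of each of the 38 cell cycle genes in the 12 libraries, as CPM per kb of exon on a log axis. Points are single libraries, coloured and shaped by group, and genes are ordered by their mean. Hmgb2 and Pcna stand above all others, Anln is lowest, and the groups overlap for every gene except Tk1, whose embWPC ALBSF libraries lie below those of Ctrl PMBSF.

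Counts of some members are uncertain because the strand setting of the counting is not stated and other genes share their exon bases. On the opposite strand, Cdc23 overlaps 54.8% of the exon bases of Kif20a, Fam210b 25.2% of Aurka, Tnnc2 19% of Ube2c, Exosc9 17.5% of Ccna2, Ints8 15.2% of Ccne2 and Rccd1 11.8% of Prc1. Pcna is overlapped over 20.8% by the noncoding RNA AV099323, and its processed copy Pcna-ps2 took 7815 counts over the 12 libraries, against 22620 for Pcna itself. The copies Ccnb2-ps and Ccnb1-ps took 378 and 22 counts, against 3287 and 7839 for Ccnb2 and Ccnb1.

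The summed level of the 38 genes varied from pool to pool, and the ranges of the 3 groups overlapped. The 38 genes summed to 664, 600, 566 and 471 CPM in Ctrl ALBSF 1 to 4, to 595, 576, 467 and 470 CPM in Ctrl PMBSF 1 to 4, and to 513, 503, 554 and 544 CPM in embWPC ALBSF 1 to 4. Means were 575 ± 80.5, 527 ± 68.1 and 529 ± 24.5 CPM (SD, n = 4). As a share of library counts, the members fell with the replicate number in both control groups. They took 0.068, 0.060, 0.051 and 0.045% in Ctrl ALBSF 1 to 4, and 0.064, 0.056, 0.052 and 0.047% in Ctrl PMBSF 1 to 4. In embWPC ALBSF the share rose from 0.047% in library 1 to 0.062% in library 4. Over the 12 libraries the highest level of a gene was 1.30 to 2.22 times its lowest, with Pcna at the lower and Kif20a at the upper end. Within a group the coefficient of variation ran from 2.94 to 34.2%, with a median of 15.8%.

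Ctrl ALBSF 1 had the highest level of 22 of the 38 genes, whereas it was the highest library for 9.84% of all genes tested. Ctrl PMBSF 3 and Ctrl PMBSF 4 had the lowest level of 11 members each, against 4.62 and 6.47% of all genes. The place of Ctrl PMBSF 3 depends on the scaling, as its TMM factor was 1.12. Before TMM the members took 0.0522% of its counts, above Ctrl ALBSF 3 (0.0513%), Ctrl PMBSF 4 (0.0469%) and Ctrl ALBSF 4, the lowest of all (0.0449%). On a scale of standard deviations from the mean of each gene, the 38 genes averaged 1.30 in Ctrl ALBSF 1, -0.77 in Ctrl PMBSF 3, -0.84 in Ctrl PMBSF 4 and -0.70 in Ctrl ALBSF 4. Mitosis and S phase members did not keep a fixed proportion, and the ratio of their sums lay between 0.751 in Ctrl PMBSF 3 and 1.13 in Ctrl ALBSF 2.

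**Figure D2:**
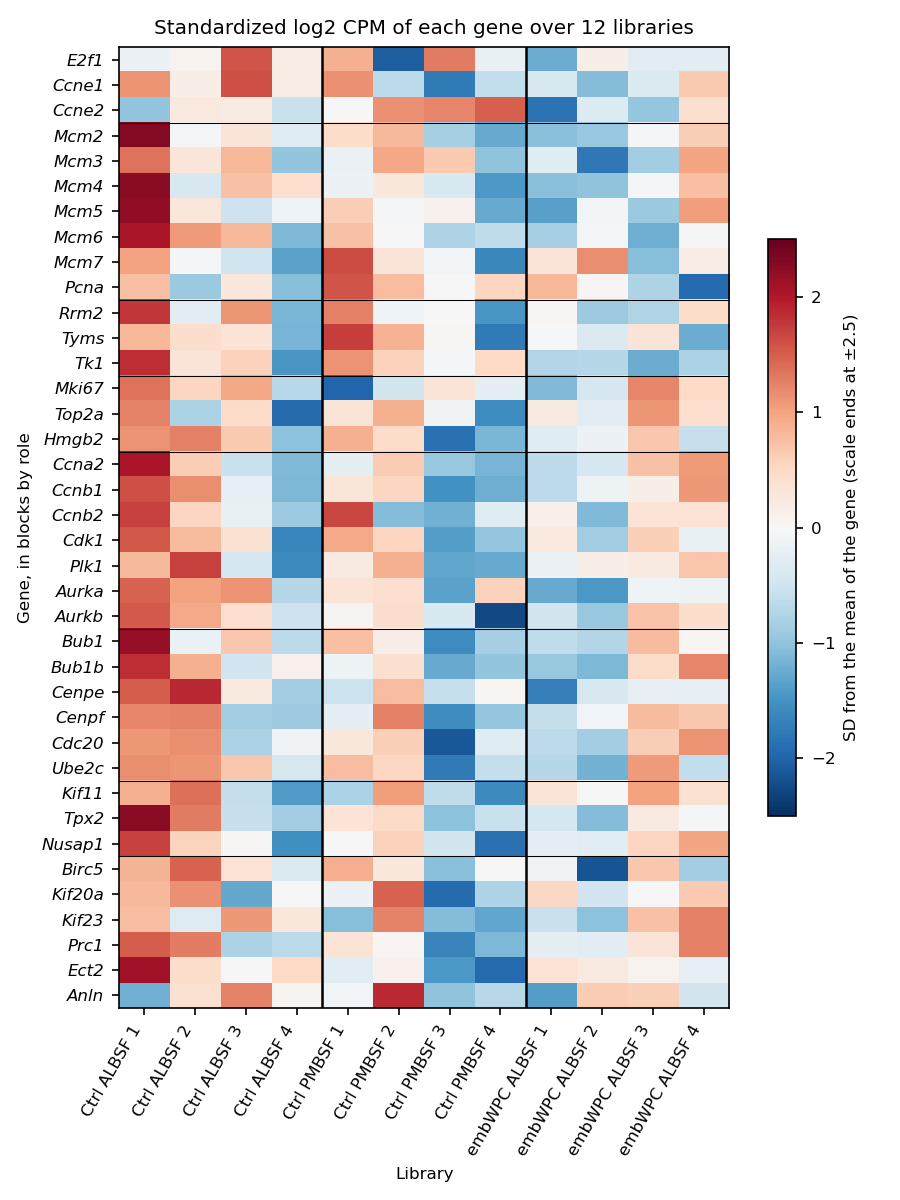
Standardized log2 CPM of each gene (rows, in blocks by role) in each library (columns, split by group); red is above and blue below the mean of that gene. On this TMM-scaled measure Ctrl ALBSF 1 is red in most rows, and Ctrl PMBSF 3, Ctrl PMBSF 4 and Ctrl ALBSF 4 are mostly blue.

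Summed marker levels of other cell types also varied between these libraries. The 8 oligodendrocyte precursor markers, of glial cells that still divide at birth, summed to 398 to 520 CPM in Ctrl ALBSF, 349 to 377 CPM in Ctrl PMBSF and 326 to 488 CPM in embWPC ALBSF, and they too were highest in Ctrl ALBSF 1. The 9 microglia and macrophage markers summed to 52.3 to 85.9, 43.6 to 102 and 45.6 to 57.2 CPM, with the highest value in Ctrl PMBSF 1. The 13 endothelial and mural markers ran from 133 CPM in Ctrl PMBSF 4 to 201 CPM in Ctrl PMBSF 2. The 12 meningeal fibroblast markers summed to 44.5 to 83.6, 62.7 to 124 and 26.7 to 79.1 CPM, and Lum, one of them, was at 0 in at least 1 library. The 15 radial glia and progenitor markers summed to 7907 to 11630, 6501 to 8152 and 5487 to 10540 CPM, nearly all of it Fabp7. The 6 erythroid genes summed to 846 to 1332, 744 to 1046 and 355 to 850 CPM. The 8 young neuron genes summed to 8567 to 13330 CPM over all libraries. The part of these cells in the levels of the 38 genes was not tested.

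**Figure D3:**
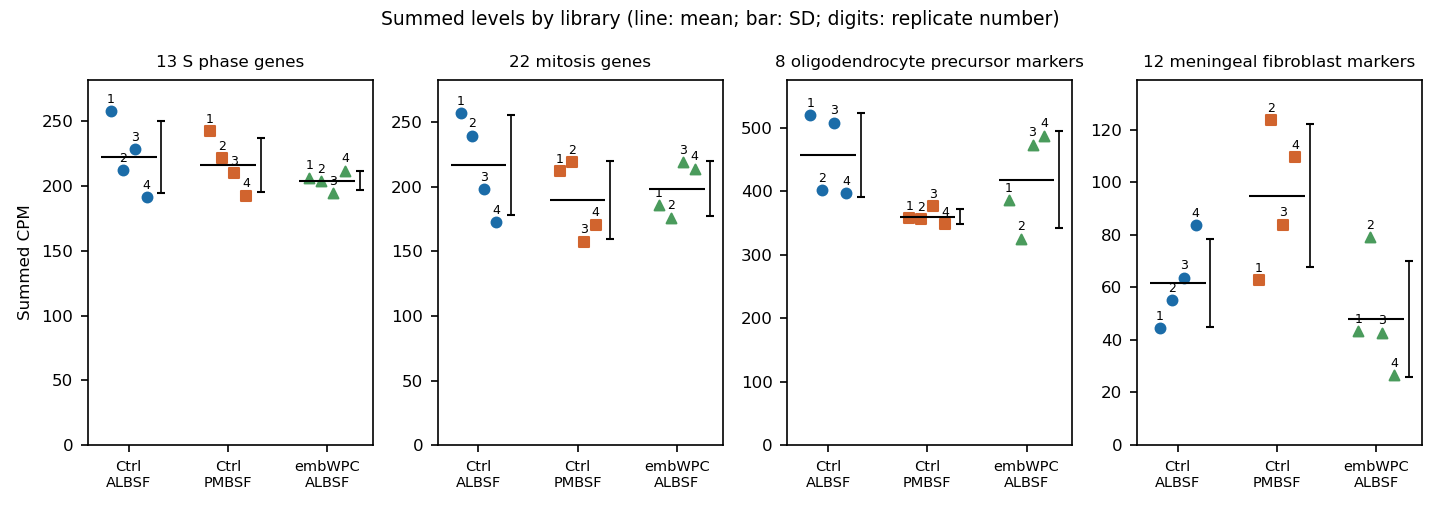
Summed CPM by library for the 13 S phase genes, the 22 mitosis genes, 8 oligodendrocyte precursor markers and 12 meningeal fibroblast markers; each point is a library, numbered by replicate, the line is the group mean and the bar the SD (n = 4). The groups overlap in both cell cycle panels, and Ctrl ALBSF 1 is the highest library in the first 3 panels.

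The comparison of Ctrl PMBSF with Ctrl ALBSF asks whether the whisker and the lip territory differ in dividing cells at birth. By edgeR's quasi-likelihood test with Benjamini-Hochberg adjustment over 17501 genes, 0 of the 38 members passed an adjusted p under 0.05, where 1.62% of all genes did. At an unadjusted p under 0.05 stood 1 member, Ect2, against 11.8% of all genes. DESeq2 and limma voom also called 0 members, and 1 and 2 members had an unadjusted p under 0.05. The share of all genes at that unadjusted limit was not computed for DESeq2 and voom, here or in the comparisons below. Over all 17501 genes, DESeq2 called 267 higher and 260 lower, and voom 233 and 210. The smallest adjusted p among the members was 0.347 by edgeR. For 0 of the 38 did the 4 libraries of one territory all lie outside the range of the other, against 8.28% of all genes.

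All 22 members of mitosis were nevertheless below 0 on the log2 scale in this comparison, none by an amount that passed the test. Over the 38 members, 32 were below 0 (49% of all genes), and the median log2 difference was -0.18, against 0.00 over all genes. S phase members divided into 8 below and 5 above 0. Scaling by library totals alone moved the median of all genes to 0.10 and that of the members to -0.09, with 29 members and 21 of the 22 mitosis members below 0. The lean also rested in part on single libraries. The median was -0.10 without Ctrl ALBSF 1, -0.12 without Ctrl PMBSF 3 and -0.27 without Ctrl ALBSF 4. Members that move together in a library are not independent, so these counts carry no test.

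The 95% intervals of the 38 differences between the control territories reached at the outermost from -0.81, for Bub1b, to 0.47, for Anln. Changes of any member to below 0.570 or above 1.38 times its Ctrl ALBSF level thus lay outside its interval. These intervals come from the fit with group as the only term, without the pairs of same-numbered libraries described below. Differences of at least 0.2 in size on the log2 scale were found for 12 members, against 33.9% of all genes. The biological coefficient of variation of the members, the spread between pools beyond counting, had a median of 15.7% (8.57 to 22.2%), and was 14.3% over all genes tested.

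Entry into S phase is covered by E2f1, a transcription factor, and the cyclin E genes Ccne1 and Ccne2. Ccne1 was at 7.67, 6.72, 8.23 and 6.74 CPM in Ctrl ALBSF and at 7.70, 5.98, 5.15 and 6.03 CPM in Ctrl PMBSF, with -0.24 ± 0.13 as the log2 difference (SE, 4 pools in each group; edgeR adjusted p = 0.533). Ccne2 went the other way, with 7.25, 8.12, 8.09 and 7.54 CPM against 7.94, 8.84, 8.90 and 9.14 CPM, and was the sole member higher in PMBSF in all 4 same-numbered pairs. The 2 territories overlapped for both genes. E2f1 lay between 2.64 and 4.36 CPM in the 12 libraries.

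Of the 7 genes of the replication fork, Mcm2 to Mcm7 encode the helicase. Mcm4 had 17.5, 11.8, 13.9 and 13.3 CPM in Ctrl ALBSF and 12.2, 13.01, 11.8 and 10.1 CPM in Ctrl PMBSF (log2 difference -0.26 ± 0.13, edgeR adjusted p = 0.460). Mcm2 was at 12.3, 7.596, 8.20 and 7.17 CPM against 8.43, 9.08, 6.46 and 5.90 CPM (-0.24 ± 0.19, adjusted p = 0.690), with Ctrl ALBSF 1 far above the other libraries. Pcna was the steadiest gene, with 62.1, 54.8, 59.9 and 54.2 CPM against 66.0, 62.2, 58.8 and 61.1 CPM. Among the 3 genes that supply nucleotides, Rrm2 ran from 25.3 to 43.9, Tyms from 8.26 to 14.4 and Tk1 from 5.32 to 7.87 CPM over the 12 libraries, with overlapping control groups.

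Mki67 is the gene most often used to mark dividing cells. In GRCm39 it lies at chr7:135291513-135318299. It had 5.42, 4.61, 5.02 and 3.60 CPM in Ctrl ALBSF, 2.78, 3.77, 4.42 and 3.96 CPM in Ctrl PMBSF, and 3.32, 3.81, 5.29 and 4.58 CPM in embWPC ALBSF. Its log2 difference between the control territories was -0.32 ± 0.19 (edgeR adjusted p = 0.554), and the groups overlapped. Top2a, which untangles DNA before mitosis, had 14.7, 11.5, 13.3 and 9.95 CPM against 13.2, 14.1, 12.5 and 10.4 CPM, with near-equal means of 12.4 ± 2.10 and 12.5 ± 1.57 CPM (SD, n = 4). Hmgb2 was at 129, 132, 120 and 93.7 CPM against 125, 117, 82.7 and 92.2 CPM.

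In the group of cyclins and kinases of G2 and mitosis, all 7 members were below 0, between -0.26 and -0.12. Ccnb1, cyclin B1, was at 27.0, 24.9, 19.4 and 16.3 CPM in Ctrl ALBSF and at 21.2, 22.2, 15.2 and 16.1 CPM in Ctrl PMBSF (-0.23 ± 0.16, edgeR adjusted p = 0.652). Aurkb, the kinase of the chromosomal passenger complex, was at 8.73, 7.91, 7.23 and 6.18 CPM against 6.83, 7.27, 6.33 and 4.62 CPM (-0.26 ± 0.15, adjusted p = 0.560). Cdk1 was at 28.9, 25.4, 23.7 and 16.8 CPM against 26.0, 24.3, 17.5 and 18.8 CPM. In each of these genes the range within Ctrl ALBSF alone was wider than the gap between the 2 means.

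The 6 members of the checkpoint, kinetochore and anaphase lay between -0.35 and -0.14. Bub1b, a kinase-like protein of the spindle checkpoint, was at 4.20, 3.41, 2.52 and 2.88 CPM in Ctrl ALBSF and at 2.73, 3.07, 2.13 and 2.26 CPM in Ctrl PMBSF (-0.35 ± 0.21, edgeR adjusted p = 0.573). Bub1, its partner kinase, differed by -0.20 ± 0.18 (adjusted p = 0.729). Ube2c was at 29.4, 29.0, 26.8 and 21.8 CPM against 27.2, 26.0, 16.8 and 21.0 CPM (-0.23 ± 0.16, adjusted p = 0.637). The 2 territories overlapped for each of the 6. The spindle genes Kif11, Tpx2 and Nusap1 lay between -0.19 and -0.15, none with a smaller adjusted p than 0.695.

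Cytokinesis held the largest of these differences beside Bub1b. Ect2, the exchange factor that switches on RhoA at the cleavage furrow, was at 4.90, 3.83, 3.60 and 3.87 CPM in Ctrl ALBSF and at 3.46, 3.65, 2.91 and 2.701 CPM in Ctrl PMBSF (-0.35 ± 0.15, edgeR adjusted p = 0.347). Prc1, which bundles the microtubules of the midzone, was at 15.5, 14.8, 9.82 and 10.1 CPM against 12.3, 11.6, 8.31 and 9.20 CPM (-0.28 ± 0.17, adjusted p = 0.591). Kif23 was at 3.94, 3.17, 4.18 and 3.57 CPM against 2.73, 4.33, 2.71 and 2.61 CPM (-0.26 ± 0.20, adjusted p = 0.674), where Ctrl PMBSF 2 stood above all Ctrl ALBSF libraries. In Ect2 a single library, Ctrl PMBSF 2, reached into the range of Ctrl ALBSF.

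Control libraries with the same number deviated together over all genes, with correlations of 0.20 to 0.40, so the control territories were also compared within pairs. Of the 38 members, 9 were lower in PMBSF in 4 of 4 pairs, where 12.7% of all genes were, and 21 were lower in 3 of 4 pairs, where 24.7% of all genes were. The 9 were Hmgb2, Ube2c, Cdc20, Ccnb1, Aurkb, Prc1, Ect2, Bub1b and Kif11, of which 8 belong to mitosis and Hmgb2 to chromatin. When the number was a block term in edgeR's test of the 8 control libraries, 0 of 38 members were called, where 5.04% of 17000 genes were. At an unadjusted p under 0.05 stood 9 members, against 19.4% of all genes. The smallest adjusted p was 0.106, for Prc1 (log2 difference -0.27 ± 0.09), followed by 0.134 for Ccnb1 (-0.22 ± 0.08) and 0.186 for Ube2c (-0.25 ± 0.10). Without the block the SEs of Prc1, Ccnb1 and Ube2c were 0.17, 0.16 and 0.16, whereas that of Ect2 was 0.15 in both fits.

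**Figure D4:**
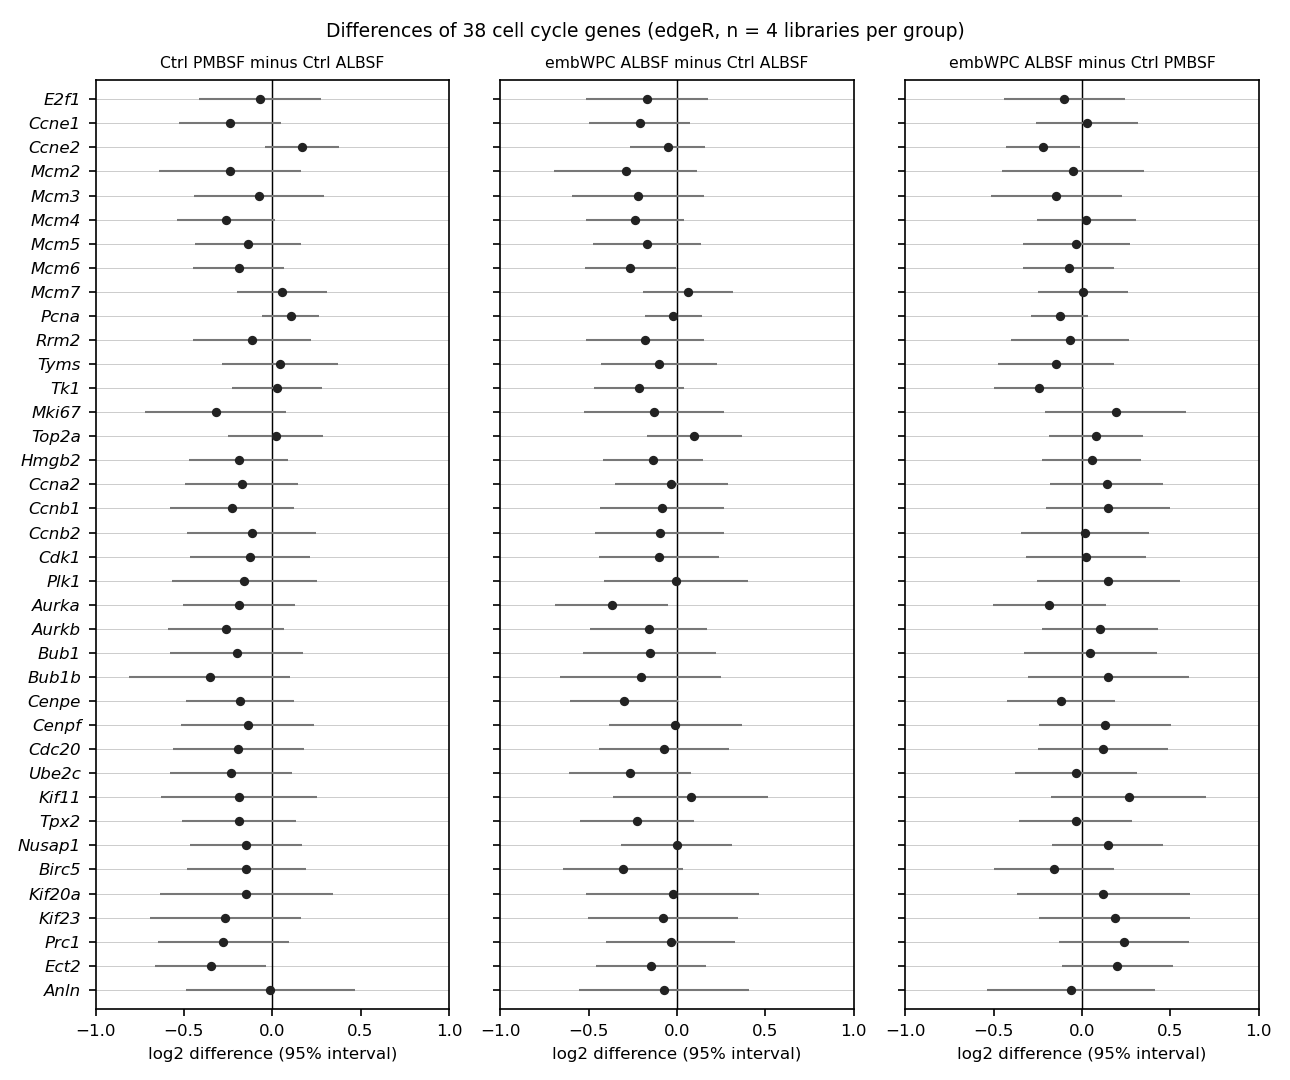
Log2 differences of the 38 genes in the 3 comparisons, with 95% intervals from edgeR (n = 4 libraries per group); genes are in order of role from S phase at the top to cytokinesis at the bottom. The mitosis genes lie left of 0 between the control territories (left panel), mostly left in the middle panel and mostly right of 0 in the right panel, and 1, 2 and 1 intervals leave out 0.

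The next comparison, within the lip territory, sets embWPC ALBSF against Ctrl ALBSF and asks for the effect of the treatment. It uses the same 4 Ctrl ALBSF libraries as the comparison above, so a library that is high there lowers the members in both. By edgeR, 0 of the 38 members were called, where 0.0629% of all genes were. Aurka and Mcm6 had an unadjusted p under 0.05, and 9.22% of all genes did. DESeq2 and limma voom called 0 members too, with 2 and 1 at an unadjusted p under 0.05. Over all 17501 genes, DESeq2 called 80 higher and 101 lower, and voom 30 and 45. Groups overlapped for all 38, whereas 5.74% of all genes had groups that did not.

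Of the 38 members, 35 were below 0 against Ctrl ALBSF (52.5% of all genes), with a median of -0.13, against -0.01 over all genes. This count fell to 25, and the median to -0.05, when Ctrl ALBSF 1 was left out, and the median was -0.21 without Ctrl ALBSF 4. Over the alternatives, 11 or 12 of the 13 S phase members and between 12 and 22 of the 22 mitosis members were below 0. The outermost bounds of the 95% intervals were -0.70, for Mcm2, and 0.51, for Kif11, or 0.618 and 1.43 times the Ctrl ALBSF level. Differences reached 0.2 in size for 12 members, all below 0, against 32.9% of all genes.

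Aurka, the kinase that ripens centrosomes, had 8.27, 7.63, 7.78 and 5.65 CPM in Ctrl ALBSF and 5.13, 4.97, 6.29 and 6.26 CPM in embWPC ALBSF. Its log2 difference was -0.37 ± 0.15 (SE, n = 4 per group; edgeR adjusted p = 0.477), and Ctrl ALBSF 4 lay within the range of the treated libraries. Mcm6 had 31.8, 27.6, 26.8 and 20.3 CPM against 21.2, 23.7, 20.1 and 23.7 CPM (-0.27 ± 0.12, adjusted p = 0.532), and there too Ctrl ALBSF 4 stood with the treated libraries. Of the other helicase and S phase genes, differences of at least 0.2 in size were found for Mcm2 (-0.29 ± 0.19), Mcm4 (-0.24 ± 0.13), Mcm3 (-0.22 ± 0.17) and Ccne1 (-0.21 ± 0.13). Tk1, thymidine kinase, differed by -0.22 ± 0.12, and the edgeR adjusted p values of Mcm2, Mcm3, Mcm4, Ccne1 and Tk1 lay between 0.602 and 0.728.

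Among mitosis genes, Birc5, survivin of the chromosomal passenger complex, was at 12.2, 13.7, 11.1 and 9.72 CPM in Ctrl ALBSF and at 10.2, 6.98, 11.8 and 8.86 CPM in embWPC ALBSF (-0.31 ± 0.16, edgeR adjusted p = 0.585). Cenpe, a kinetochore motor, was at 7.38, 7.81, 6.09 and 5.16 CPM against 4.53, 5.52, 5.69 and 5.69 CPM (-0.30 ± 0.14, adjusted p = 0.549). Ube2c had 20.5, 18.8, 28.8 and 20.9 CPM in embWPC ALBSF, where the third library stood apart from the rest (-0.27 ± 0.16, adjusted p = 0.647). Tpx2, which seeds spindle microtubules, differed by -0.23 ± 0.15 and Bub1b by -0.21 ± 0.21. The members not named here were within 0.2 of 0, among them Cdk1, with 23.1, 19.1, 24.5 and 21.5 CPM in embWPC ALBSF.

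Comparing embWPC ALBSF with Ctrl PMBSF asks whether the treated lip territory still differs from the control whisker territory, and it shares libraries with both comparisons above. By edgeR 0 of the 38 were called, where 0.00571% of all genes were, and 1, Ccne2, had an unadjusted p under 0.05, against 9.47% of all genes. DESeq2 and limma voom also called 0, with 0 and 1 at an unadjusted p under 0.05. Over all 17501 genes, DESeq2 called 34 higher and 40 lower, and voom 1 and 0. Below 0 lay 16 members (53.4% of all genes), and the median was 0.02 against -0.02. By role, 10 of 13 S phase members were below 0 and 16 of 22 mitosis members above 0. With library totals alone 13 and 13 were, and the median over the members became -0.04, where that of all genes was -0.08. The sign of the members' median turned when Ctrl PMBSF 3 (-0.03) or Ctrl PMBSF 4 (-0.02) was left out. The intervals reached from -0.54, for Anln, to 0.70, for Kif11, or 0.688 to 1.63 times the Ctrl PMBSF level. Of the 38, 5 differed by at least 0.2, against 32.6% of all genes.

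Tk1 was the one member whose groups did not overlap here, against 4.73% of all genes. It had 7.24, 6.78, 6.30 and 6.72 CPM in Ctrl PMBSF and 5.80, 5.81, 5.46 and 5.76 CPM in embWPC ALBSF (-0.24 ± 0.12, edgeR adjusted p = 0.538). Ccne2 had 6.68, 7.69, 7.25 and 8.25 CPM in embWPC ALBSF, with 1 library inside the range of Ctrl PMBSF (-0.22 ± 0.10, adjusted p = 0.519). Kif11 had 5.07, 4.75, 5.89 and 5.13 CPM against 3.97, 5.95, 4.11 and 3.33 CPM in Ctrl PMBSF (0.26 ± 0.20, adjusted p = 0.704). Prc1 and Ect2 differed by 0.24 ± 0.17 and 0.20 ± 0.15, with adjusted p values of 0.680 and 0.685, and their groups overlapped.

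The wider cell cycle was followed in 4 further lists, of which 3 hold genes that drive it. These lists and those of cell types were chosen with earlier results of these data known. Their counts beside the shares of all genes are therefore descriptions, not tests of a list. Between the control territories 0 of 39 other replication genes, 0 of 57 other mitosis genes and 0 of 21 G1 cyclins, kinases and E2F factors were called by edgeR, against 1.62% of all genes. Other mitosis genes leaned the way of the mitosis members, with 52 of 57 below 0 and a median of -0.19, where 49% of all genes were below 0. At an unadjusted p under 0.05 stood 8 of the 57, near the 11.8% of all genes. Other replication genes had 18 of 39 below 0 and a median of 0.02. Cit, a kinase of the midbody that neurons of the developing brain also express, came closest, with 31.4 to 48.7 CPM in Ctrl ALBSF and 15.7 to 29.7 CPM in Ctrl PMBSF. Its log2 difference was -0.74 ± 0.19 (edgeR adjusted p = 0.0724). It passed by DESeq2 (adjusted p = 0.00721) and by limma voom (0.0305). By edgeR it passed without a count filter (adjusted p = 0.00225) and without Ctrl PMBSF 3 (0.0498). With the replicate block it passed in 12 libraries (edgeR adjusted p = 0.0384) and in the 2 control groups (0.000299). It did not pass under the other alternatives. The block in the 2 control groups also called 1 further gene in each of 3 lists, against 5.04% of all genes. They were the securin gene Pttg1 among other mitosis genes (-0.41 ± 0.10, adjusted p = 0.0449), Myc, a transcription factor of growth, among the G1 list (-0.30 ± 0.06, adjusted p = 0.0228) and the antiproliferative gene Btg1 among exit genes (0.27 ± 0.06, adjusted p = 0.0295). Slbp, which binds histone mRNA and was the most abundant other replication gene, had 142 ± 9.58, 146 ± 6.48 and 150 ± 14.4 CPM in Ctrl ALBSF, Ctrl PMBSF and embWPC ALBSF (SD, n = 4). Cks1b, a small partner of Cdk1 and the most abundant other mitosis gene, had 54.6 ± 7.21, 48.6 ± 5.99 and 44 ± 9.34 CPM.

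Of 18 inhibitors and exit genes tested, Cdkn1c and Gadd45g rose in Ctrl PMBSF against Ctrl ALBSF and 0 fell, by edgeR, where 1.62% of all genes were called in either direction. The other 16 did not pass. Cdkn1c, the imprinted inhibitor p57 of cyclin-dependent kinases (GRCm39, chr7:143012069-143014806), had 142, 118, 106 and 103 CPM in Ctrl ALBSF and 215, 299, 256 and 266 CPM in Ctrl PMBSF. All 4 Ctrl PMBSF libraries lay above all 4 of Ctrl ALBSF, and its log2 difference was 1.14 ± 0.18 (SE, n = 4 per group; edgeR adjusted p = 0.0042). In embWPC ALBSF it had 248, 157, 210 and 124 CPM, between the 2 control groups and overlapping both, with differences of 0.65 ± 0.18 from Ctrl ALBSF (adjusted p = 0.217) and -0.49 ± 0.18 from Ctrl PMBSF (adjusted p = 0.434). The first of these passed by DESeq2 (adjusted p = 0.0337).

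Gadd45g, a growth arrest gene, had 6.05, 6.998, 5.15 and 5.52 CPM in Ctrl ALBSF, 18.2, 13.1, 10.9 and 8.57 CPM in Ctrl PMBSF, and 7.28, 11.9, 7.18 and 7.49 CPM in embWPC ALBSF. The difference between the control territories was 1.10 ± 0.22 (edgeR adjusted p = 0.0193), with no overlap, and it did not pass when Ctrl ALBSF 3, Ctrl ALBSF 4 or Ctrl PMBSF 2 was left out (adjusted p from 0.0535 to 0.0839). Cdkn1a, the inhibitor p21, had 216 ± 18.5 and 196 ± 20.8 CPM (SD, n = 4) in Ctrl ALBSF and Ctrl PMBSF. Over the whole list 12 of 18 genes were above 0 and the median log2 difference was 0.03. Below 0 lay 33.3% of the list, against 49% of all genes.

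Of the progenitor and precursor markers, 1 of 15 radial glia and progenitor markers and 1 of 8 oligodendrocyte precursor markers fell in Ctrl PMBSF, where 1.62% of all genes were called. Insm1, a zinc finger factor of progenitors about to become neurons, had 3.77, 5.70, 4.88 and 5.55 CPM in Ctrl ALBSF, 2.13, 2.64, 2.21 and 2.58 CPM in Ctrl PMBSF, and 3.76, 3.23, 3.51 and 3.14 CPM in embWPC ALBSF. It fell by 1.06 ± 0.16 on the log2 scale between the control territories (edgeR adjusted p = 0.00325). Its list did not move as one. Of the 15 markers, 9 were below 0 and 6 above, from -1.06 to 1.71, with a median of -0.13. Sox10, a factor of the oligodendrocyte line, fell by 0.67 ± 0.13 (adjusted p = 0.0189), from 8.13 ± 0.982 to 5.11 ± 0.485 CPM (SD, n = 4), but did not pass when libraries were scaled by totals alone (adjusted p = 0.131). It also did not pass when Ctrl ALBSF 2 or 3 or Ctrl PMBSF 3 or 4 was left out (0.0524 to 0.0839). All 8 oligodendrocyte precursor markers were below 0, with a median of -0.40, where 49% of all genes were below 0. Among the lists of other cell types, thalamic relay neuron markers had 1 gene of 10 that rose and 2 that fell, and the remaining 6 lists had 0 calls. In both comparisons of embWPC ALBSF, 0 genes of the 13 lists outside the members were called by edgeR. Of all genes, 0.0629% were called against Ctrl ALBSF and 0.00571% against Ctrl PMBSF.

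**Figure D5:**
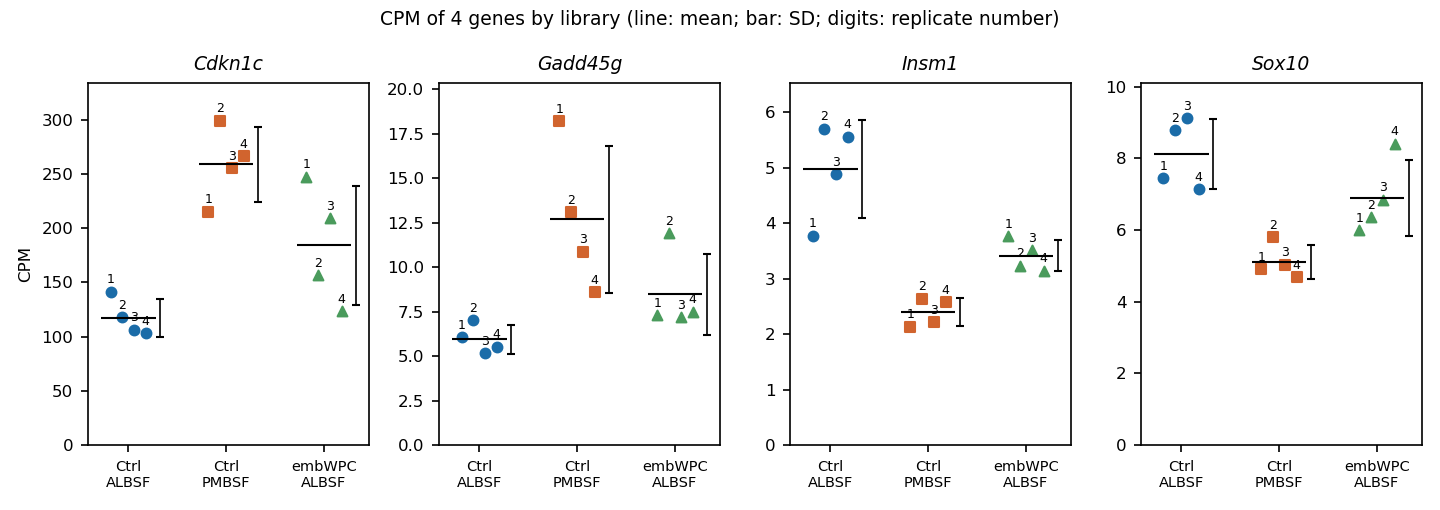
CPM by library of the cell cycle exit genes Cdkn1c and Gadd45g, the progenitor gene Insm1 and the oligodendrocyte precursor gene Sox10; points are libraries numbered by replicate, the line is the mean and the bar the SD (n = 4). The 2 control groups do not overlap in any panel, and the mean of embWPC ALBSF lies between theirs. All 4 genes were called by edgeR between the control groups. Neither that gap nor the place of embWPC ALBSF within it is therefore an independent result.

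Outside the lists, the genes whose log2 CPM followed the mean standardized level of the 38 members most closely over the 12 libraries were named as a description, without a test. Oip5, a centromere gene, came first with a Pearson r of 0.90, but 239 of its exon bases overlap Nusap1, a member, on the opposite strand. Rad54l, a recombination repair gene, and Hhex and Tmem123 followed at 0.88, then Unc93b1, Ccdc80, Msn, Phlda1 and Pmp22, and Nrm at 0.86. The 12 libraries share their scaling and, by group, their tissue, and the 10 genes were picked for this value out of those with a mean of at least 1 CPM.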

How the data were processed

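Poly-A RNA of 12 pools was sequenced in read pairs of 150 nucleotides, per the labels' protocols. The deposited values are raw counts per Ensembl gene. The authors used STAR 2.7.9a for alignment to GRCm39 and featureCounts (Subread 2.0.1) with the annotation of Ensembl release 104 for counting, per the submitters' processing notes and the series design. Beside GRCm39, mm10 is named in those notes. Settings for strand and for reads with several positions are not given in the sources used here. The authors' DESeq2 1.32 results were not used.

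Symbols, GRCm39 positions and exon lengths came from GENCODE mouse release 39, which held 54749 of 55359 genes; the rest took at most 0.0221% of a library. Each library differed from every other by more than sampling noise (chi-square at least 12.6 per degree of freedom). In R 4.3.3, edgeR 4.0.16 fitted the 12 libraries by quasi-likelihood with group as the only term, filterByExpr and TMM factors. Benjamini-Hochberg adjustment ran over 17501 genes, with 0.05 as the limit for a call. Intervals are 95% intervals from the SE and the degrees of freedom of the fit. P values set a group difference against the spread between pools of a group, and nothing in the labels says that pools came from separate litters. Log2 CPM used for standardized levels had a prior count of 2.

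Same-numbered control libraries had correlated deviations over all genes (r = 0.39, 0.20, 0.33 and 0.40), above 0.1 in every pair, and were also fitted with the replicate number as a block; the pairing comes from this check, not from a label. Those of embWPC ALBSF did not pair (r from -0.15 to 0.05). Alternatives used DESeq2 1.42.0, voom with quality weights in limma 3.58.1, RLE factors, library totals alone, no count filter, only the groups compared, a replicate block, and each library left out in turn.

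The 38 members and the 13 other lists (230 symbols, 229 found) were chosen with earlier results of these data known. All members are named. Of other lists, the text may name called genes, up to 4 with the smallest p and the 3 most abundant. Outside them it takes 10 genes by correlation with the members. Log2 differences of single members are given where at least 0.2 in size, a limit set after values were seen. The order by length uses CPM per kb of merged exons.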

Additional observations from a re-analysis of the deposited data

Results flagged for a closer look

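Among 114 groups of 4 values of the 38 genes, 5 held a library far from the other 3, where chance gives about 1 in 20. Tk1 was low in embWPC ALBSF 3, at 5.46 CPM, with the next library at 5.76 CPM. Ccnb2 was low in embWPC ALBSF 2, at 6.98 CPM against 8.62 CPM for the next. Aurka was low in Ctrl PMBSF 3, at 5.07 CPM against 6.78 CPM. Cenpe was low in embWPC ALBSF 1, at 4.53 CPM against 5.52 CPM. Kif23 was high in Ctrl PMBSF 2, at 4.33 CPM against 2.73 CPM, the widest of the 5 gaps relative to the range of its group.

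Among 63 groups of summed list levels, 2 held such a library. The sum of ependymal and choroid plexus markers was 101.8 CPM in Ctrl ALBSF 2, with the next library at 4.76 CPM, and 24 CPM in Ctrl PMBSF 2, with the next at 4.46 CPM. Both carry the number 2. The members summed to 600 CPM and 576 CPM in these libraries, inside the ranges of the other pools of their groups. Without Ctrl ALBSF 2 or without Ctrl PMBSF 2, 0 members were called between the control territories, and their median was -0.13 and -0.24. Few genes of any kind were called in these fits, 78 higher and 82 lower of 17800, and 76 and 87 of 17871.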

How the results depend on the processing

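The count of called members was 0 in all 3 comparisons under each of the 8 alternatives to the model and with each of the 12 libraries left out. Counts over all genes moved. Between the control territories, 284 genes became 527 with DESeq2, 443 with voom and 857 with the replicate block in the 2 groups, and 127 to 282 with a library left out. For embWPC ALBSF against Ctrl ALBSF, 11 became 181 with DESeq2, 75 with voom, 7 with library totals, 121 without a count filter, 23 and 1 with the replicate block in 12 libraries and in 2 groups, and 1 to 37 with a library left out. Against Ctrl PMBSF, 1 became 74 with DESeq2, 72 without a filter, 3 and 0 with the block in 12 libraries and in 2 groups, and 1 to 3 with a library left out. In the 4 other cell cycle lists, 2 calls between the control territories became 6 with the block in 2 groups and 1 to 3 with a library left out. The 0 calls against Ctrl ALBSF became 1 with DESeq2 (Cdkn1c) and 2 without a filter (Cdkn1c and Cit). The cause of these moves was not tested. Of 82 log2 differences of named genes, 29 of them the member differences of at least 0.2 in size, 0 changed sign. Over all 38 members, up to 5 signs changed between the control territories (without Ctrl PMBSF 1), up to 10 against Ctrl ALBSF (without Ctrl ALBSF 1) and up to 8 against Ctrl PMBSF (without Ctrl PMBSF 3). The block changed no call of a member.

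With 4 pools a group and a median spread of 15.7% between them, the standard errors of the 38 differences ran from 0.08 to 0.23 on the log2 scale. Counts of Kif20a, Aurka, Pcna and other members that share exon bases with other genes depend on counting settings that are not known.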

Other observations

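Foxp2 and Tcf7l2, 2 transcription factors of thalamic relay neurons, fell in Ctrl PMBSF by 0.88 ± 0.15 and 0.76 ± 0.16 in log2 units (SE, with n = 4 in each group; edgeR adjusted p = 0.00665 and 0.0301), and Rora, another such factor, rose by 0.39 ± 0.09 (adjusted p = 0.0436). Tcf7l2 did not pass when Ctrl ALBSF 2, 3 or 4 or Ctrl PMBSF 1, 2 or 3 was left out (adjusted p from 0.0563 to 0.115). Rora did not pass with the replicate block in 12 libraries (0.0845), nor when any 1 of the 8 control libraries or embWPC ALBSF 2 or 3 was left out (0.0522 to 0.146). The 12 meningeal fibroblast markers were all above 0 in Ctrl PMBSF against Ctrl ALBSF, with a median of 1.36 and 0 called, and all below 0 in embWPC ALBSF against Ctrl PMBSF, with a median of -1.94 and 0 called. Of all genes, 49% and 53.4% were below 0 in these comparisons. Col3a1, a fibrillar collagen, had 2.86, 23.7, 8.54 and 5.90 CPM in Ctrl PMBSF and 2.67 to 3.77 CPM in Ctrl ALBSF.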
